A study of Mus musculus with 58 samples.

Results

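The forestomach is the first chamber of the rodent stomach. It is lined by stratified squamous epithelium that makes keratins, with smooth muscle beneath it, and it is the first tissue to meet a compound given by gavage. Benz(a)anthracene (BaA) is a polycyclic aromatic hydrocarbon with 4 fused rings. Compounds of this family bind the aryl hydrocarbon receptor (AhR), which pairs with Arnt and switches on genes such as Cyp1a1 and Cyp1b1. The enzymes those genes encode turn the hydrocarbon into reactive products that can bind DNA, and damaged DNA can in turn activate the p53 targets. The comparison described here asked which transcripts differed in the forestomach between the 5 mice given the highest dose of BaA, 80 mg/kg body weight per day (D3), and the 4 vehicle mice (D0). The members were the 9 arrays titled as D3 or D0 forestomach, of 19 forestomach arrays and 58 arrays in the series.

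All animals were adult male Muta™Mouse, a transgenic strain that carries a lacZ reporter for mutation, about 10 weeks old. Mice of D0 received olive oil and those of D3 received BaA in olive oil, by oral gavage each day for 28 days, and all were killed 72 h after the final gavage. The other 2 forestomach groups were D1 (20 mg/kg, 5 mice) and D2 (40 mg/kg, 5 mice). RNA came from a random slice of the forestomach, and each mouse gave 1 array, so the p-values measure the spread between mice. On each 2-colour array, Cy5 carried the forestomach RNA and Cy3 a universal mouse reference RNA, and a level below is log2(Cy5/Cy3) of a probe. A log2 change is the D3 mean minus the D0 mean. A probe was called changed at an adjusted p of at most 0.05 (limma, Benjamini-Hochberg over 32330 tested probes) and a fold of at least 1.5.

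The squamous label held in every sample. Krt4, a keratin of the upper squamous layers, lay between 6.35 and 7.44 in D0 and between 6.00 and 7.03 in D3. Loricrin (Lor), a protein of the cornified envelope, lay between 7.04 and 7.43 in D0 and between 6.65 and 7.42 in D3. The slices also held other tissue. The mean level of 15 glandular stomach genes, among them the trefoil and gastrokine genes, was 0.48, 5.36, 0.62 and 0.38 in D0 mice 1, 2, 3 and 4. It was 1.15, 2.51, 0.77, 5.34 and 5.57 in D3 mice 16, 17, 18, 19 and 20. D0 mouse 2 and D3 mice 19 and 20, which shared slide 3, therefore carried far more glandular stomach RNA than the rest, and D3 mouse 17 an intermediate amount. Each slide held all 4 dose groups, but each group always sat in the same array column, so that dose and array position cannot be told apart. Between 38.4% and 69.2% of probes were well above background in Cy5 on the 19 forestomach arrays, with the lowest shares, 38.4% to 42.1%, on slide 3.

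After 28 days at the highest dose, 8 of 32330 tested probes (0.0247%) were called in forestomach. They were 2 probes for the chaperone Hspa8 that were lower in D3, 1 probe for the splicing factor Srsf5 and 1 for the keratin Krt31 that were higher, and 4 probes whose transcripts had no gene symbol. Of these 4, 2 were lower in D3 and ran with Hspa8 over the arrays, which the choice of called probes in part fixes. Of the 8, 3 were higher (0.00928%) and 5 were lower (0.0155%). The genes by which AhR and p53 activity are usually read were not called. The median change over all tested probes was -0.0071, 48% of them were above 0 and 52% below. The D0 and D3 groups did not overlap in 636 probes (1.97%), and 1650 probes (5.1%) had an unadjusted p under 0.05, where 1616.5 would do so by chance. That number moved with the fit, to 3017 without D0 mouse 2, 2507 with the glandular level as a covariate, 2442 with slide as a block and 2598 on slides 1 and 2 alone.

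Hspa8 encodes the constitutive Hsp70 chaperone of the cytosol, which folds new proteins and strips clathrin from vesicles. Its probe A_55_P2069721 read 0.16, 0.08, 0.67 and -0.075 in D0 mice 1, 2, 3 and 4. In D3 mice 16 to 20 it read -0.63, -0.97, -0.81, -0.63 and -0.56. Every D3 mouse was below every D0 mouse, and the highest D0 value was that of mouse 3. The probe fell by 0.93 on the log2 scale (SE 0.14, 95% interval -1.22 to -0.64), a fold of 1.90 with an adjusted p of 0.0133. The change within slides 1, 2 and 3 was -0.97, -1.10 and -0.67. A second Hspa8 probe, A_55_P2080603, read 0.42, 0.51, 0.92 and 0.17 in D0 and -0.34, -0.54, -0.54, -0.28 and -0.19 in D3. The groups again did not overlap, and the probe fell by 0.88 (SE 0.14, adjusted p 0.0403). Another, A_52_P12877, changed by -0.97 and did not pass (SE 0.18, adjusted p 0.129), with D0 values from -0.58 to 0.49 and D3 values from -1.33 to -0.82. The calls were sensitive to single mice. The adjusted p of A_55_P2069721 was 0.0614 without D0 mouse 1, 0.0636 without D3 mouse 17 and 0.0641 without D3 mouse 18. That of A_55_P2080603 passed 0.05 without any of D0 mice 1, 2 and 3 or D3 mice 16, 17, 18 and 19, reaching 0.18, while its change stayed between -0.91 and -0.74. Over all 22 alternative fits the change of A_55_P2080603 ran from -1.03 to -0.54.

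A pair of probes without a gene symbol followed Hspa8. Both carry predicted mouse transcript accessions of the array design, and whether their sequences resemble Hspa8 was not tested. XM_918536 read -0.079, 0.019, 0.44 and -0.10 in D0 and -0.74, -1.08, -0.99, -0.83 and -0.76 in D3, and it fell by 0.95 (SE 0.12, adjusted p 0.00288). XR_030775 read -0.15, 0.011, 0.47 and -0.21 in D0 and -0.74, -1.10, -1.02, -1.05 and -0.70 in D3, and it fell by 0.95 (SE 0.13, adjusted p 0.0056). In both, D0 mouse 3 was again the highest and no D3 mouse reached a D0 value. Over the 19 forestomach arrays their levels ran with the Hspa8 probe A_55_P2080603 at a Pearson r of 0.932 and 0.964, and the other called Hspa8 probe did so at 0.98. Those arrays include the D0 and D3 arrays on which the probes were called, so r is in part fixed by that choice. The r within dose groups was not computed.

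Srsf5 encodes a serine and arginine rich (SR) protein that binds exonic sequences and helps choose splice sites. Its level was -0.98, -1.31, -0.99 and -0.80 in D0 and -0.050, 0.14, 0.14, -0.14 and -0.37 in D3. Every D3 mouse was above every D0 mouse. The transcript rose by 0.96 (SE 0.14, 95% interval 0.66 to 1.27), a fold of 1.95 with an adjusted p of 0.0133. The rise was 1.03, 1.04 and 1.05 within slides 1, 2 and 3. Over the 19 forestomach arrays the Srsf5 probe ran opposite to the Hspa8 probe A_55_P2080603 (Pearson r = -0.923), a description over arrays that share the Cy3 reference. This r too includes the D0 and D3 arrays on which both probes were called. Without any of D0 mice 1, 2 and 3 or D3 mice 16, 17 and 18, the adjusted p of Srsf5 lay between 0.0506 and 0.0748.

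Krt31 encodes a type I keratin of hair and nail. It read 1.08, 0.77, 0.93 and 1.08 in D0 and 2.13, 2.26, 2.40, 2.14 and 2.37 in D3. The groups lay more than 1 log2 unit apart at their nearest values. The change was 1.29 (SE 0.14, 95% interval 1.01 to 1.58), a fold of 2.45 with an adjusted p of 0.000757, and it was 1.12, 1.39 and 1.48 within slides 1, 2 and 3. The other hair and nail keratins did not follow it. Of 7 tested genes of that list, Krt31 was called and 6 were not, and the median change of the 7 was -0.0037. At the lower doses the Krt31 change was 0.041 (D1) and 0.051 (D2).

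Krt31 also differed in the reference channel, which by design held the same RNA on every array. Its log2 Cy3 signal lay between 6.74 and 6.94 on D0 arrays and between 7.23 and 7.49 on D3 arrays, a change of 0.48 with an adjusted p of 0.0125. The second probe that was higher in D3, for the transcript XM_900959, was of this kind. Its log2 ratio read 1.31, 0.91, 1.28 and 1.02 in D0 and 1.72, 2.08, 1.98, 2.00 and 2.16 in D3, a rise of 0.86 (SE 0.11, adjusted p 0.0056). Its Cy3 signal rose by 1.94 (adjusted p 0.00172). The probe for AK016664 ran the other way. Its ratio was 1.46, 0.91, 1.21 and 1.23 in D0 and 0.071, 0.32, 0.27, 0.23 and -0.10 in D3, and it fell by 1.05 (SE 0.14, adjusted p 0.0056) while its Cy3 signal fell by 1.24 (adjusted p 4.95e-05). That probe was well above background in Cy5 on 4 of 4 D0 and 3 of 5 D3 arrays. Of the 8 called probes, these 3 had a Cy3 change past an adjusted p of 0.05. Over all tested probes, 58 (0.179%) were called in Cy3 at D3, 23 higher and 35 lower, with changes from -2.68 to 3.78. The number was 0 at D1 and 9 at D2, with 475 and 1021 probes at an unadjusted p under 0.05 in the same limma fit. The Cy3 change of the Hspa8 probe A_55_P2080603 was 0.31 (adjusted p 1.00) and that of Srsf5 was 0.094. Cy3 also varied within groups. For the trefoil gene Tff1 it was 13.5 in D0 mouse 2 and 13.3 in D3 mice 19 and 20, but 6.09 to 6.31 in D0 mice 1, 3 and 4. For XM_918536 it was 10.1 to 10.4 on those slide 3 arrays and 12.4 to 12.8 on the other D0 and D3 arrays. The part of this variation in the log2 ratios, the glandular levels among them, was not tested.

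**Figure D1:**
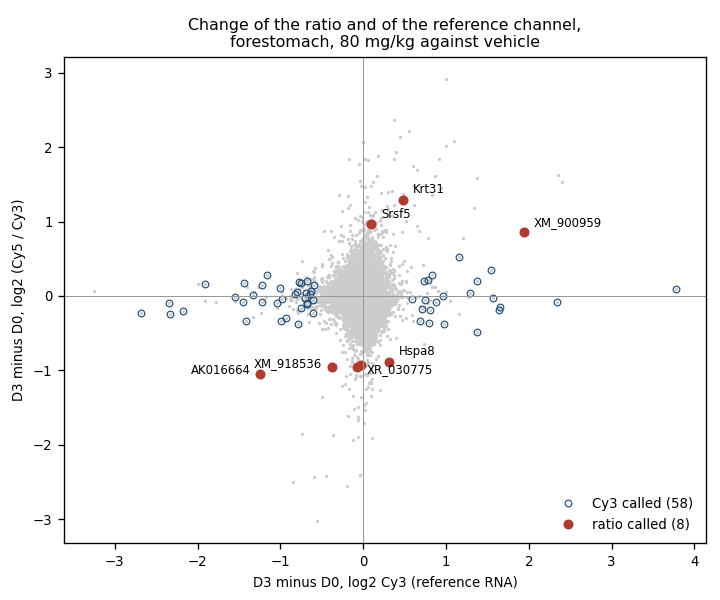
Change of the log2 ratio (vertical axis) against change of the log2 Cy3 signal (horizontal axis), D3 minus D0, for the tested forestomach probes, with the probes called in either measure marked. Krt31, XM_900959 and AK016664 lie off the vertical line of no Cy3 change, at 0.48, 1.94 and -1.24, whereas Srsf5 lies near it at 0.094.

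The doses below 80 mg/kg share the D0 arrays with the comparison above, so their values are given side by side only. The Hspa8 probe A_55_P2069721 changed by -0.33 at D1, -0.71 at D2 and -0.93 at D3. Srsf5 changed by 0.42, 0.82 and 0.96. The tissue held in the slices also differed between the dose groups. The median change of the glandular stomach genes was 3.26 at D1, 1.10 at D2 and 1.18 at D3, and that of fat genes was -1.75, -1.26 and -1.94. The part of this in the values by dose was not tested. At D1 no probe was called by limma, with 1429 probes at an unadjusted p under 0.05. At D2, 4 probes were called (0.0124%), and these were XM_918536 (-0.80, adjusted p 0.0208), the Purkinje cell gene Pcp2 (0.86, adjusted p 0.00716) and 2 probes named by position alone. XM_918536 was among the 8 probes called at D3, whereas Pcp2 changed by 0.11 there.

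**Figure D2:**
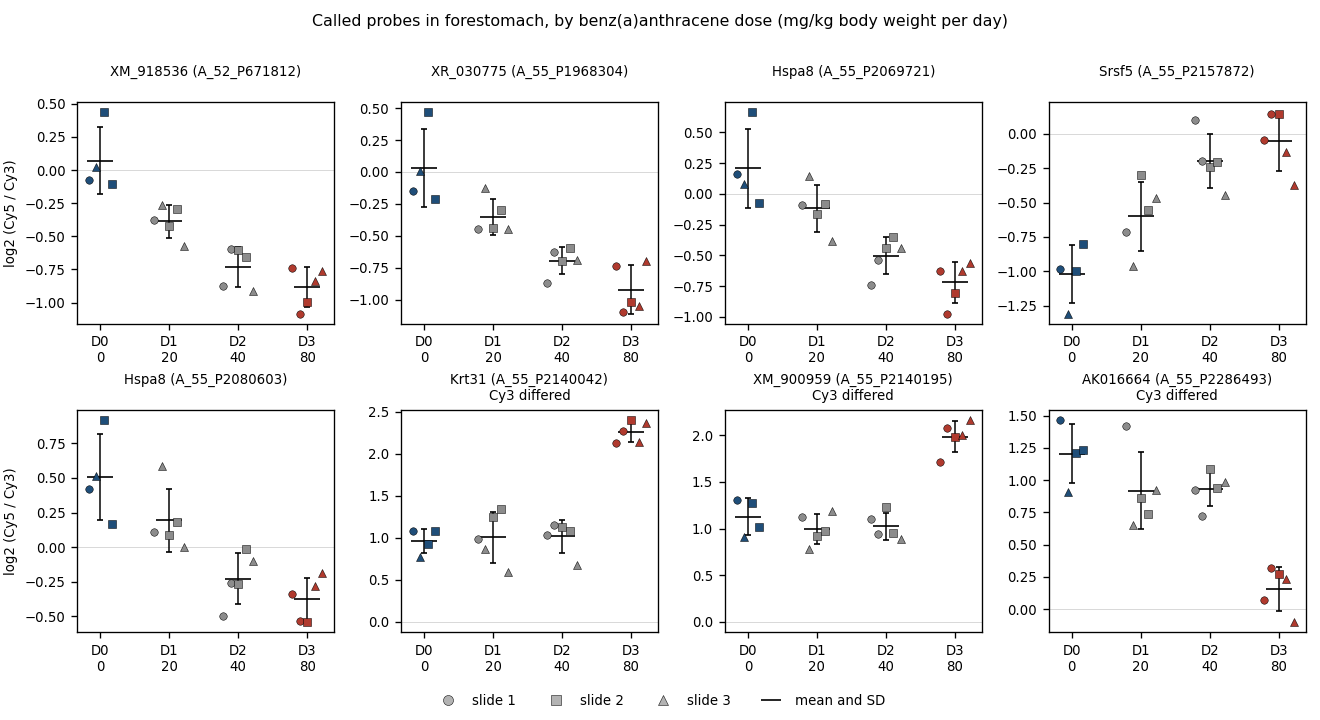
Log2(Cy5/Cy3) of the 8 called probes on each of the 19 forestomach arrays, by daily dose of BaA (0, 20, 40 and 80 mg/kg), with the mean and SD of each group and a symbol for each slide. The group means of both Hspa8 probes, XM_918536 and XR_030775 are lower and that of Srsf5 higher at each dose than at the dose before it, while Krt31 and XM_900959 stand apart at 80 mg/kg and were not called at 20 or 40 mg/kg.

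Most chaperones had a change below 0 in D3, and Hspa8 alone among the 3 lists was called. Heat shock factor 1 controls many of these genes through inverted repeats of the pentamer nGAAn. Of 14 tested Hsp70 and Hsp110 genes, 1 was called lower, 4 had a change above 0, 5 had an unadjusted p under 0.05, and the median change was -0.15. Of 13 Hsp40 co-chaperones, 2 had a change above 0, 5 had an unadjusted p under 0.05 and the median was -0.18. Of 18 genes for Hsp90, small heat shock proteins and their partners, 3 had a change above 0, 7 had an unadjusted p under 0.05 and the median was -0.22. Over all tested probes these were 48%, 5.1% and -0.0071. The 3 medians stayed below 0 in every alternative but moved with single mice. Without D0 mouse 3 the Hsp70 median was -0.077 and the Hsp90 median -0.12, and without D0 mouse 2 they were -0.24 and -0.36. Without D3 mouse 19 the Hsp40 median was -0.12 and the Hsp90 median -0.14, and with the glandular level as a covariate the Hsp90 median was -0.11.

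Within the Hsp70 family, Hsph1, an Hsp110 chaperone that exchanges nucleotide on Hsp70, read 1.06, 0.32, 1.75 and 0.75 in D0 and -0.12, 0.23, 0.0037, -0.80 and -0.75 in D3. The groups did not overlap, but the values within each spread over more than 1 log2 unit, -1.26 (SE 0.33, adjusted p 0.542). Hspa1a, the stress-inducible Hsp70, ranged from 2.91 to 5.24 in D0 and from 1.88 to 3.60 in D3, a change of -1.35 (SE 0.51, adjusted p 0.85). The near-identical Hspa1b could share its signal. Hspa5, the Hsp70 of the endoplasmic reticulum, changed by -0.53 and did not pass.

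Dnaja1, an Hsp40 that delivers clients to Hspa8, changed by -1.25 (SE 0.26, adjusted p 0.269) on its brightest probe and by -0.29 on a dimmer one. Hsp90aa1, the inducible cytosolic Hsp90, changed by -0.71 (adjusted p 0.638), whereas the constitutive Hsp90ab1 changed by 0.028. Chordc1, an Hsp90 partner, changed by -0.56 (adjusted p 0.502). Dnajb1, another classical heat shock target, changed by -0.080. Its D0 values ran from 0.098 to 1.32 and those of D3 from 0.64 to 0.81, inside the D0 range. D0 mouse 3 had the highest level of Hsph1 and of the Hspa8 probes, and the mean level of the Hsp90 list spread from 0.12 to 0.80 among the 4 D0 mice.

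The promoters of 4 of these chaperones and of Srsf5 are printed to show the heat shock pair. The windows are RefSeq sequence of GRCm38.p6, from 250 bases before to 50 bases after a transcript start, 5′ to 3′ on the strand of the gene. Capitals mark the inverted pairs GAANNTTC or TTCNNGAA, each of which reads the same on both strands and may overlap the next. Hsph1 (chr5:149636287-149636586, minus strand) held 3 matches in each of 2 windows, Dnaja1 (chr4:40722218-40722517, plus strand) 1 in this window of 3, Hspa1a (chr17:34972107-34972406, minus strand) 1, Chordc1 (chr9:18292017-18292316, plus strand) 5, and Srsf5 (chr12:80945249-80945548, plus strand) 0.
Hsph1: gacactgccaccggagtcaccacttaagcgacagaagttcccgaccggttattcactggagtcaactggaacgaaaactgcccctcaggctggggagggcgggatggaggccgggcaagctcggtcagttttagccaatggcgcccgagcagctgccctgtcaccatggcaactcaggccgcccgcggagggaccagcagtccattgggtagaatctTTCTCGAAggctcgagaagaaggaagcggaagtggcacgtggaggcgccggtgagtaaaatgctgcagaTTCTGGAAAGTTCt
Dnaja1: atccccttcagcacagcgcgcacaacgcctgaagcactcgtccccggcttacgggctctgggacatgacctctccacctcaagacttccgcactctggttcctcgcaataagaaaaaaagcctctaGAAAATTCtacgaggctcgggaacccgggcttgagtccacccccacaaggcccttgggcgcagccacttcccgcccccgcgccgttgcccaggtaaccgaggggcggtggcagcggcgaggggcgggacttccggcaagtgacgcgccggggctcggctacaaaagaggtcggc
Hspa1a: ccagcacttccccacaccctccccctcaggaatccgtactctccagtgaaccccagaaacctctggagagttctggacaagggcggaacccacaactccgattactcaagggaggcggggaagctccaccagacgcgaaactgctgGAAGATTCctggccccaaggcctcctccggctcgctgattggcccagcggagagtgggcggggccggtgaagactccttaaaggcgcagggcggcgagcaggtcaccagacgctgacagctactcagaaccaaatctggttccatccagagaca
Chordc1: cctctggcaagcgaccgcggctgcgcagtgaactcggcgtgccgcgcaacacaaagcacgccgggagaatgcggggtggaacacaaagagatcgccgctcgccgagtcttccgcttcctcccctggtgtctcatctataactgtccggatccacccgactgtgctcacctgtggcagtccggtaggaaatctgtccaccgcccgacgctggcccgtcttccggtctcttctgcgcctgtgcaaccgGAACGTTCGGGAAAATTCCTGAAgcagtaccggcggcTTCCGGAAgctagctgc
Srsf5: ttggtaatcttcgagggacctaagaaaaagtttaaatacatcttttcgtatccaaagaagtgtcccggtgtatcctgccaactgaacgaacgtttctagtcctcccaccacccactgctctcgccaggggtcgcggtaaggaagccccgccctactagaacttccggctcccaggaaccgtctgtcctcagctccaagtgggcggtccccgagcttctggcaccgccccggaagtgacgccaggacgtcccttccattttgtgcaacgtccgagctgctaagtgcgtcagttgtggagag

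A pair of this kind was present in the windows of 4587 of 27025 genes (17%). Among listed genes with a window it was present for 2 of 10 Hsp70 and Hsp110 genes, 4 of 12 Hsp40 genes and 7 of 14 genes of the Hsp90 list. A match describes these letters only. Hspa8 and Hsp90aa1 were not among the genes with a window.

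**Figure D3:**
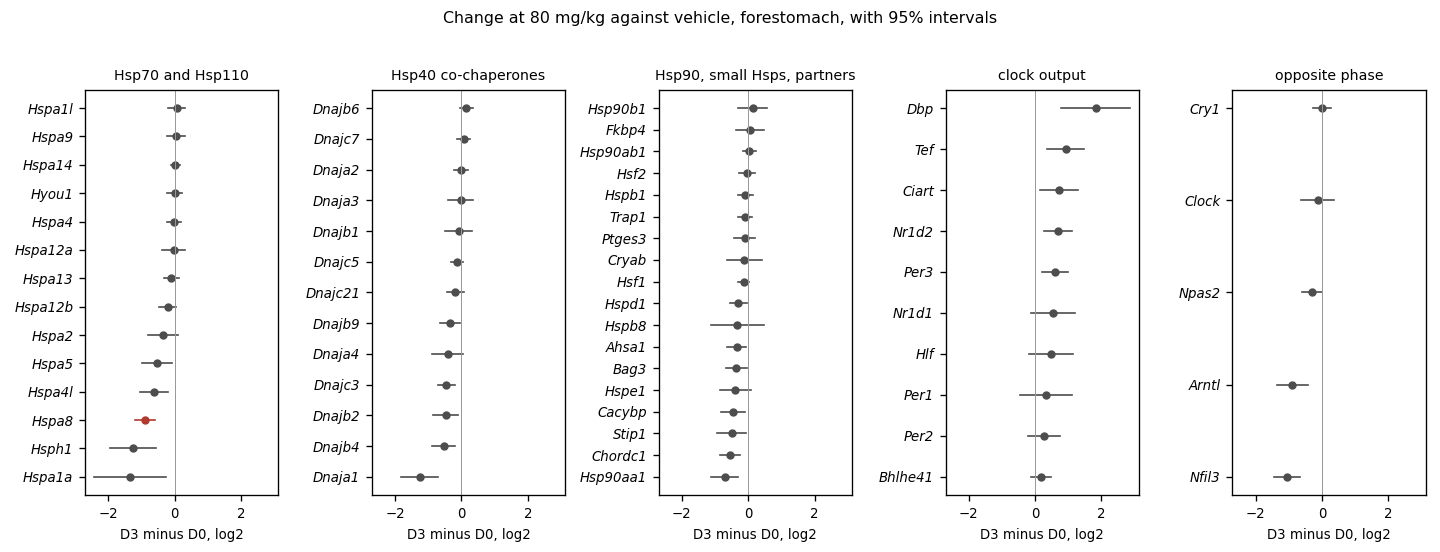
Log2 change, D3 minus D0, with its 95% interval for each tested gene of the 3 chaperone lists and the 2 circadian lists. Most chaperones lie below 0 with wide intervals, and all 10 clock output genes lie above 0, with Dbp at 1.82.

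The SR genes did not rise as a set with Srsf5. Of 12 tested SR genes, Srsf5 was called higher and 11 were not called, 6 were above 0, and the median change was -0.011. An unadjusted p under 0.05 was seen for 4 of the 12, against 5.1% of all tested probes, and these changes did not share a direction. Srsf10, whose protein represses splicing when dephosphorylated, changed by -0.31 (adjusted p 0.44), Srsf7 by -0.27 and Srsf4 by 0.25. The CLK kinases, which phosphorylate SR proteins, and the cyclin L genes had a median of -0.051 over 8 genes, with 0 called and 0 at an unadjusted p under 0.05. Clk1 itself changed by -0.021.

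Genes of the circadian clock lay in opposite directions in D3, without a call. Their lists were chosen with earlier results of these data known, so the counts are descriptions. The clock output genes are driven by the Bmal1 (Arntl) and Clock pair and are silenced by the Per and Cry proteins. All 10 tested output genes had a change above 0, the median was 0.58, 5 had an unadjusted p under 0.05 and 0 were called. Among all tested probes 48% had a change above 0, 5.1% had an unadjusted p under 0.05, and the median was -0.0071. The mean level of the output list lay between -0.47 and 0.32 in D0 and between 0.54 and 0.82 in D3. Dbp, a PAR bZIP transcription factor, read -0.14, -0.31, -1.75 and 0.59 in D0 and 1.18, 1.58, 1.38, 1.47 and 1.49 in D3. The 5 D3 mice lay close together and above all D0 mice, which were widely spread, and the change of 1.82 (SE 0.49) had an adjusted p of 0.589. Tef, of the same family, changed by 0.92, Ciart, a repressor of the clock, by 0.71, the receptor Nr1d2 by 0.69 and Per3 by 0.61.

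Of 5 tested genes of opposite phase, 4 had a change below 0, against 52% of all tested probes, and the median was -0.30. Nfil3, which competes with Dbp for the same DNA sites, read -1.01, -1.20, -0.27 and -1.30 in D0 and -1.79, -1.98, -2.0005, -2.06 and -2.15 in D3. Its groups did not overlap, and the change of -1.05 had an adjusted p of 0.0852. Arntl changed by -0.90 (adjusted p 0.473) and Npas2, a partner of Arntl, by -0.30. D0 mouse 3 had the lowest Dbp and the highest Nfil3 of the D0 mice, as well as the highest Hsph1. The hour at which each mouse was killed was not given in the sources used here. The E-box CACGTG, which the clock factors bind, was present in the windows of 8.09% of all genes, of 4 of 9 output genes and of 1 of 5 genes of opposite phase. The 4 output genes were Tef, Per1, Ciart and Bhlhe41. The windows of Dbp and Nfil3 held 0 matches each.

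The AhR genes were not called. Of 11 tested, 7 had a change above 0, against 48% of all tested probes. An unadjusted p under 0.05 was seen for 2 of the 11, against 5.1% of all tested probes, and the median was 0.035. Cyp1a1 read 0.77, 0.065, 0.54 and 1.20 in D0 and 2.25, 1.53, 1.25, 0.17 and 0.25 in D3. The groups overlapped, and the probe was well above background in Cy5 on 3 of 4 D0 and 3 of 5 D3 arrays. The change was 0.45 with an SE of 1.1 and a 95% interval of -1.89 to 2.79. Within slides 1, 2 and 3 it was 1.12, 0.39 and 0.15. The fit shares its spread with the lower doses, where single mice reached 7.07 (D1) and 5.04 (D2) while others of the same group lay at 0.55 and 0.40. With the D0 and D3 arrays fitted alone the SE was 0.42, and the change again did not pass (adjusted p 0.997).

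Cyp1b1, the related enzyme, changed by -0.14 and Tiparp, an AhR target that limits the receptor, by -0.00012. Nqo1, a quinone reductase under AhR and Nrf2, changed by 0.48 with D0 values from 1.34 to 2.97. Ahr changed by 0.026 and its repressor Ahrr by 0.035. The pair of genes with an unadjusted p under 0.05 were Arnt (0.28) and the squamous cytochrome Cyp2s1 (0.23), both with an adjusted p above 0.8.

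The p53 targets were not called either. Of 23 tested, 0 were called, 13 had a change above 0, against 48% of all tested probes, and the median was 0.052. Of these targets 3 had an unadjusted p under 0.05, against 5.1% of all tested probes. Their changes ran from -0.54 to 0.73, and the interval given next is that of Cdkn1a alone. Cdkn1a, the cell cycle inhibitor p21, lay between 0.73 and 0.91 in D0 and between 0.83 and 0.96 in D3. Its change was 0.052 with a 95% interval of -0.16 to 0.26, so that a 1.5-fold change in either direction lay outside the interval. Mdm2, the ligase that degrades p53, changed by -0.023, Ccng1 by 0.16 and Bax by 0.15. The 3 genes with an unadjusted p under 0.05 were Plk2 (0.40), Fas (-0.44) and Sesn2 (-0.54), and they did not share a direction. The signs of the AhR and p53 medians turned under some other settings of the processing, as both lay near 0.

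**Figure D4:**
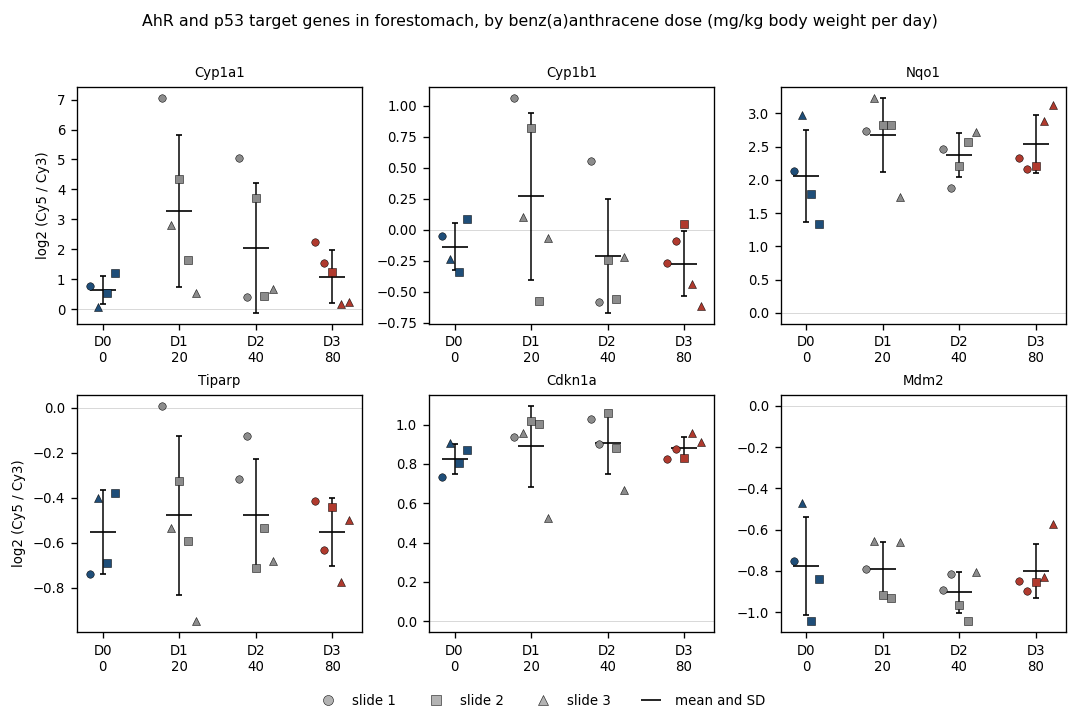
Log2(Cy5/Cy3) of Cyp1a1, Cyp1b1, Nqo1, Tiparp, Cdkn1a and Mdm2 on each forestomach array by daily dose of BaA, with group mean and SD. Cyp1a1 ranges from 0.55 to 7.07 among D1 mice, and Cdkn1a stays between 0.73 and 0.96 in D0 and D3.

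No gene was called in the remaining response lists. For comparison, 48% of all tested probes had a change above 0 and 5.1% had an unadjusted p under 0.05. Among 20 genes of nucleotide excision repair, the pathway that removes bulky DNA adducts, the median was -0.042 and 1, Ercc5, had an unadjusted p under 0.05. Among 19 Nrf2 targets, the antioxidant genes, 13 had a change above 0 and the median was 0.094. The ubiquitin and proteasome genes had a median of 0.018 over 21 genes, the cell cycle genes -0.056 over 19, the interferon-stimulated genes -0.077 over 16 and the antigen presentation genes 0.10 over 14. Of 11 inflammation genes, 7 had a change above 0 and the median was 0.13. S100a9, a subunit of calprotectin that squamous cells and neutrophils make, lay between 3.93 and 4.64 in D0 and between 4.98 and 5.67 in D3. Its groups did not overlap, and the change of 0.83 (SE 0.21) had an adjusted p of 0.511. Il1b changed by 0.32.

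Probes with a symbol that came nearest to a call were spread over many functions. Below 0 they were Htatsf1 (-0.43, adjusted p 0.0852), Nfil3, the uncalled Hspa8 probe, the chromatin remodeller Chd2 (-0.45), Zfp148 (-0.35), Dnaja1, Eogt (-0.32) and Mphosph10 (-0.54). Above 0 they were the ETS repressor Erf (0.35), the exosome subunit Exosc7 (0.51), the RNA helicase Ddx5 (0.40), Ipmk (0.48), Zbtb22 (0.44), 9430038I01Rik (0.50), Tbl1xr1 (0.28) and Hscb (0.39). Adjusted p lay between 0.0852 and 0.352 for these probes. Other probes for Chd2, Ipmk, Tbl1xr1, Zfp148 and Mphosph10 lay between -0.089 and -0.028, 1 of the other Ddx5 probes was at 0.019, and a brighter Htatsf1 probe was at -0.21.

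In a slice of tissue, fewer cells of a type and less RNA per cell cannot be told apart. The squamous layers did not differ beyond the spread between mice. The mean level of 10 basal layer genes changed by -0.018 (exact permutation test over arrays, two-sided p = 0.905), that of 10 suprabasal keratins by 0.069 (exact p = 0.778) and that of 18 cornified envelope genes by -0.14 (exact p = 0.349). All 15 glandular stomach genes had a change above 0 and the mean level changed by 1.36 (exact p = 0.270), with the values by mouse given above. The exocrine pancreas list changed by 0.47 (exact p = 0.397), and was at 2.36 in D0 mouse 2 and at 1.15, 1.91 and 2.16 in D3 mice 17, 19 and 20.

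The fat genes, among them adiponectin (Adipoq), adipsin (Cfd) and the lipid droplet protein Plin1, had all 7 tested members below 0 in D3. Their mean level was 4.22, 1.26, 4.55 and 5.17 in D0 mice 1, 2, 3 and 4 and 2.98, 2.63, 0.66, 1.72 and 1.33 in D3 mice 16 to 20. D0 mouse 2 lay among the D3 mice. The change of -1.94 had an exact p of 0.095, where 0.0159 is the smallest the design allows, and within slides 1, 2 and 3 it was -1.41, -4.20 and 0.27. Skeletal muscle genes changed by -0.29 (exact p = 0.063) and smooth muscle genes by -0.21 (exact p = 0.429). The lists of red cells, B cells, T cells, macrophages and mast cells, and nerve and glia changed by -0.18 to 0.089 (exact p from 0.238 to 0.937). With p-values adjusted over the 14 lists of tissue layers and other cells tested in this way, none passed. Of these tissues, only the glandular stomach was adjusted for, by a fit with its level on each array as a covariate. That fit called 11 probes including all 8. No fit adjusted for fat, pancreas or muscle, so their part in the called probes was not tested. Another fit left out slide 3, a choice made with the results in view. On slides 1 and 2 the glandular level still changed by 0.98 and the fat level by -2.56. Krt31 and Srsf5 were called there with adjusted p of 0.00173 and 0.021. The Hspa8 probes were not called (0.0919 and 0.136), although their changes, -1.06 and -0.97, were larger than with all slides.

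**Figure D5:**
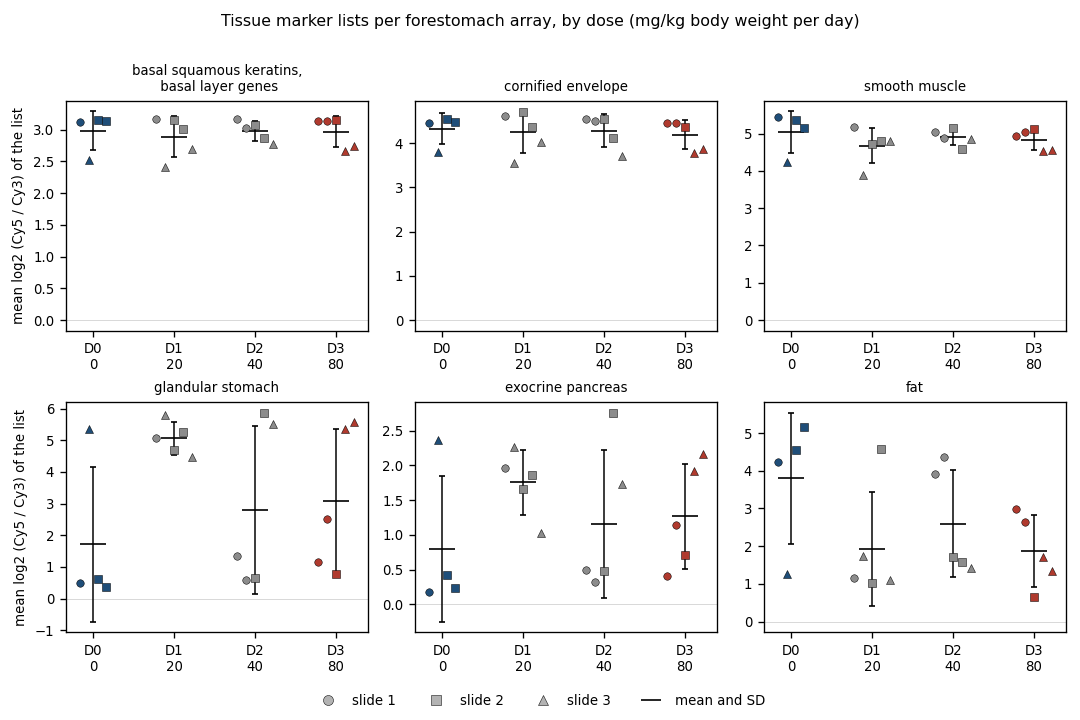
Mean log2(Cy5/Cy3) over marker lists of tissue layers and other tissues on each of the 19 forestomach arrays, by daily dose of BaA, with group mean and SD. The squamous lists overlap between D0 and D3, with D0 mouse 2 lowest of the D0 mice for the basal (2.52) and cornified (3.80) lists. Among D0 and D3 mice, the glandular stomach list lies above 5 in D0 mouse 2 and D3 mice 19 and 20, and the fat list spreads from 0.66 to 5.17.

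Lung and liver of the same experiment place the forestomach response beside other tissues, from sets of mice that were largely but not wholly the same. D0 and D3 together had 10 lung and 9 liver arrays. D0 mouse 5 had lung and liver arrays but none of forestomach, and D3 mouse 20 had none of liver. In lung, 571 of 30392 tested probes (1.88%) were called at D3. Hspa8 fell there by 1.05 (A_55_P2069721, adjusted p 5.41e-05), and the difference between the tissues, -0.12 (95% interval -0.55 to 0.32), did not pass (adjusted p 0.944). Srsf5 rose by 1.53 in lung (adjusted p 9.92e-07), 0.56 more than in forestomach (95% interval 0.11 to 1.01, adjusted p 0.418). By the interaction term, 74 of 28446 probes (0.26%) differed between lung and forestomach, of which 67 had the higher change in lung.

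Krt31 was one of the 7 with the higher change in forestomach. Its lung change was -0.16, and the difference of -1.46 had an adjusted p of 1.36e-05. Against liver, where 10 of 22087 probes differed (0.0453%), the Krt31 difference was -0.95 (adjusted p 0.0253). XM_900959 also differed from both tissues, by -0.93 (lung) and -1.04 (liver). Krt31 and XM_900959 were chosen because they were called in forestomach. The difference between tissues holds that same forestomach change, so the choice favoured it. Among the genes with the higher change in lung were Neat1, a nuclear long noncoding RNA, at 1.60 in lung and -0.27 in forestomach (adjusted p of the difference 0.0451), and Clk1, at 0.88 and -0.021 (adjusted p 0.0263). Dbp changed by 1.79 in lung (adjusted p 0.00298), and its difference from forestomach of -0.037 had a 95% interval of -1.39 to 1.32. Cirbp, a cold-inducible RNA-binding protein, was at 1.29 and 0.46, and its difference did not pass (adjusted p 0.154). Of the 58 probes called in Cy3 in forestomach, 11 were among the 13 called in liver Cy3 and 0 among the 9 called in lung Cy3. Without a threshold, the liver Cy3 change had the sign of the forestomach change for all of them but a probe named by position alone (-0.012 in liver, 0.83 in forestomach). The largest rise and fall, 3.78 and -2.68 in forestomach, were 3.06 and -2.25 in liver. In lung, the Cy3 changes of these probes lay between -0.55 and 0.42.

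The precision of the comparison can be read from all probes. The median SE of a change was 0.13, and 78.8% of tested probes had a 95% interval that lay within 1.5-fold of no change on both sides. A change of more than 1.5-fold was measured for 430 probes (1.33%), and the smallest change that was called was 0.86. Arrays of 1 group correlated between 0.843 and 0.979, and no 2 arrays were the same.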

How the data were processed

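RNA was hybridised to Agilent 8x60K 2-colour arrays. The deposited scanner files held the median Cy5 and Cy3 intensity of each spot and Feature Extraction's (version 10.7.3.1) processed signals, and the authors' value table held log2 ratios normalised by LOWESS without background correction. The deposited log2 ratios correlated with the values used here at 0.995 to 0.998. Here, spots marked as outliers were left out (0.495%), the median intensities were normalised within each array by loess without background correction, and spots of a probe were averaged (limma 3.58.1, R 4.3.3). A model of the 4 dose groups was fitted to the 19 forestomach arrays. The study fitted MAANOVA, which was replaced by limma. A probe was tested where its Cy5 spot was flagged as well above background on 4 or more arrays. Normexp, with an offset of 50, was run on median signals. Cy3 was compared after quantile normalisation. The number of arrays limits the precision.

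Symbols came from RefSeq (GRCm38.p6) by accession, for 26413 of 55681 probes. For a gene with several probes, the one with the highest mean Cy5 signal stood for it. Named were all called probes, the 8 nearest uncalled probes with a symbol in each direction, a fixed gene list, and the gene with the largest moderated t in each list. The lists, genes and comparison were chosen with earlier results of these data known, and list-wise counts are therefore descriptions. D0 and D3 are different mice, so the mice are not paired within the main comparison. Arrays of both groups shared slides, and slide as a block was an alternative. Lung and forestomach of a mouse share the animal, and a fit with mouse as a replicate block was run for that difference. Deviations of the 19 pairs from their group means correlated at -0.119 to 0.211 (median 0.0931). The fits were tested on simulated data before use.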

Additional observations from a re-analysis of the deposited data

Results flagged for a closer look

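Of 214 groups of values examined, 16 held a sample whose gap to its neighbour was large against the range of the group (Dixon's test), where chance flags about 1 in 20. D0 mouse 2 gave 9 of them. It was the highest for the mean level of the glandular stomach list (5.36), of the exocrine pancreas list (2.36) and of the T cell list (-1.18), and the lowest for the basal squamous list (2.52), the cornified envelope list (3.80), the ubiquitin and proteasome list (0.0954), Krt5 (3.37), Krt14 (3.49) and Cfd (0.367). D0 mouse 3 had the highest Hsp90aa1 (0.944) and the lowest Cirbp (-1.10), and D0 mouse 4 the highest B cell level (-0.129). Among D3 mice, the lowest Aldh3a1 was 2.71 in mouse 19, the lowest Tff1 3.93 in mouse 18, and the highest Dnajc3 (1.55) and Mdm2 (-0.570) were both in mouse 20.

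The D3 effect differed between tissues by the interaction term for 4 of the probes described. The change in lung minus that in forestomach was -1.46 for Krt31, -0.93 for XM_900959, 0.90 for Clk1 and 1.87 for Neat1. The change in liver minus that in forestomach was -0.95 for Krt31 and -1.04 for XM_900959. Krt31 and XM_900959 were chosen because they were called in forestomach, which favoured such differences. Both also differed between D0 and D3 in the reference channel, and the part of that Cy3 difference in these values was not tested.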

How the results depend on the processing

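The count of 8 called probes was 8 with normexp, with the authors' ratios, without a filter on dim probes or with a trend and robust prior, and all 8 stayed called in each. It was 10 with slide as a block and 11 with the glandular level as a covariate, all 8 among them in both. It was 5 on processed signals and 1 (Krt31) when D0 and D3 arrays were fitted alone. It was 47 on Cy5 alone, with 5 of the 8 among them, and 100 on Cy5 alone with slide as a block, with 7 of the 8 among them. Centring arrays by their median in place of loess left 0 called (244 probes at an unadjusted p under 0.05), and 0 for the lung difference (451). Leaving out 1 mouse gave 5 to 9 probes, with 5 when mouse 1 of D0 or mouse 17 or 18 of D3 was omitted. Of 2 alternatives chosen after seeing the data, leaving out probes whose Cy3 signal differed gave 4, and slides 1 and 2 alone gave 5, of which Krt31 and Srsf5 were shared and the others were Snhg10, AK007112 and 1 unnamed transcript. Probes called in Cy3 numbered 104 with slide as a block. The 74 probes that differed between lung and forestomach became 170 with slide within tissue as a block, 81 with mouse as a replicate block, all 74 among them, and 34 to 91 without 1 mouse, with 34 without D3 mouse 19, 44 without D0 mouse 4, 45 without D3 mouse 18 and 47 without D3 mouse 17. No called probe turned its direction in any alternative. The cause of these shifts was not tested.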
